A study of Mus musculus with 8 samples.

Results

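Expression of 10 genes of the myosin light chains and of the kinases that act on them was examined in the quadriceps of mice lacking the nucleoporin Nup210. The members were *Mylpf*, *Myl1*, *Myl2*, *Myl3*, *Myl4*, *Myl6*, *Myl6b*, *Myl9*, *Mylk2* and *Mylk4*, found by their symbol in the deposited table, and each matched 1 of its 47643 genes. RNA came from 4 mice labelled *Nup210*-/- and 4 labelled *Nup210*+/+, of the strain given as C57BL/6 in the labels and C57BL/6J in the methods, with no treatment given in the labels. The knockout is constitutive: per the methods, exon 2 was removed in the germ line by crossing floxed mice with Hprt-Cre mice, so cells of every type in the muscle carry the deletion. The age and sex of these mice are not given in the sources used here. Values are TPM, which express a gene as its share of all transcripts in its library, corrected for length, and allow genes of different length to be set side by side. Read depth is unknown, so errors are SDs over mice of 1 genotype.

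The libraries were of skeletal muscle: the 10 defining muscle genes examined, among them *Acta1* and *Ckm*, were all above the filter and together took between 54317 and 62614 TPM. *Nup210* mRNA was at 8.81 to 11.93 TPM in *Nup210*-/- and at 5.71 to 10.11 TPM in *Nup210*+/+ libraries, so it was not lower under the knockout label, gene-level values do not resolve exon 2, and directions rest on the labels. *Nup210*+/+ replicate 2 stood apart: 6 granulocyte precursor genes summed to 381.7 TPM there against at most 2.12 TPM elsewhere. Results for the members are therefore also given without it where that matters. In whole muscle, fewer cells of a type cannot be told apart from less RNA per cell.

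Each myosin heavy chain head carries an essential and a regulatory light chain, which stiffen the lever arm that turns the motor's small movement into a stroke. Muscle fibers use different genes for these chains. *Myl1* (essential) and *Mylpf* (regulatory) serve fast fibers, *Myl3* and *Myl2* serve slow fibers and the heart ventricle, *Myl4* is used in embryonic muscle and the atrium, and *Myl6*, *Myl6b* and *Myl9* belong mainly to smooth muscle and nonmuscle myosin. *Mylk2* encodes the calcium- and calmodulin-dependent kinase of skeletal muscle, which phosphorylates the regulatory chain near its amino terminus and is known for potentiating the force of fast fibers. *Mylk4* encodes a related kinase.

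The coding starts of 3 regulatory chains are shown because the kinase acts on this end of the protein. They are the initial 66 coding bases (22 codons) of 1 GENCODE M21 transcript per gene, and capitals mark the longest run, of 14 bases, that *Mylpf* and *Myl2* have in common there.
Mylpf: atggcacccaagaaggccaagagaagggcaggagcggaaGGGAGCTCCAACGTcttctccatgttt
Myl2: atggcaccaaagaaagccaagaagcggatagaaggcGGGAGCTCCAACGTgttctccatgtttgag
Myl9: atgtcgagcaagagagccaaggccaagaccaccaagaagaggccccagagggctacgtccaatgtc
Over the whole coding sequence, the fast and slow regulatory chains *Mylpf* and *Myl2* were identical at 67.0% of 497 aligned bases, and *Mylpf* and *Myl9* at 66.7% of 499.

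The essential chains *Myl6* and *Myl6b* lie next to each other on the minus strand of chromosome 10 and were the most alike of the pairs compared, with 78.8% identity over 449 aligned coding bases. Their longest identical stretch is shown in capitals with 20 bases on either side, because it bears on whether reads of 75 bases can be assigned to the right gene.
Myl6: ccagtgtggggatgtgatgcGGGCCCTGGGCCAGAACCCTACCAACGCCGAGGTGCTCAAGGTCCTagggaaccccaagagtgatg
Myl6b: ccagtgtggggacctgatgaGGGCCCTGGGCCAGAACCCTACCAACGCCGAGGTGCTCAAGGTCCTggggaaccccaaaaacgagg
At 46 bases it is shorter than a read, and no other pair within the essential chains, the regulatory chains or the kinases had an identical stretch over 29 bases. No window of 75 bases was shared between members, but some were shared with copies elsewhere in the genome. Of the 591 windows of 75 bases in the *Myl6* transcript, 38.6% also occur in at least 1 of 5 processed pseudogenes, and 16.6% of the windows of *Myl1* occur in the pseudogene *Mylf-ps*. *Mylk4* shared 0.164% of its windows with other genes, and the other 7 members shared none.

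Levels spanned more than 3 orders of magnitude (plot of TPM by gene), and the 8 light chain genes together took between 2.529 and 2.906% of all TPM in a library. *Mylpf* (chromosome 7, 127208890 to 127214298) was the most abundant member, with a mean of 14229 TPM over the 8 libraries, followed by *Myl1* (chromosome 1, 66924295 to 66945404) with 11713 TPM. *Mylk2*, at 548.9 TPM, *Myl2*, at 533.7 TPM, *Myl3*, at 442.2 TPM, and *Mylk4*, at 417.5 TPM, formed a middle tier. *Myl6* followed at 173.6 TPM, *Myl9* at 20.88 TPM, *Myl4* at 7.613 TPM and *Myl6b* at 7.095 TPM. Most steps of this order held in 8 of 8 libraries. The exceptions were *Mylk2* over *Myl2* (4 of 8), *Myl3* over *Mylk4* (4 of 8) and *Myl4* over *Myl6b* (5 of 8), which did not differ beyond their spread.

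**Figure D1:**
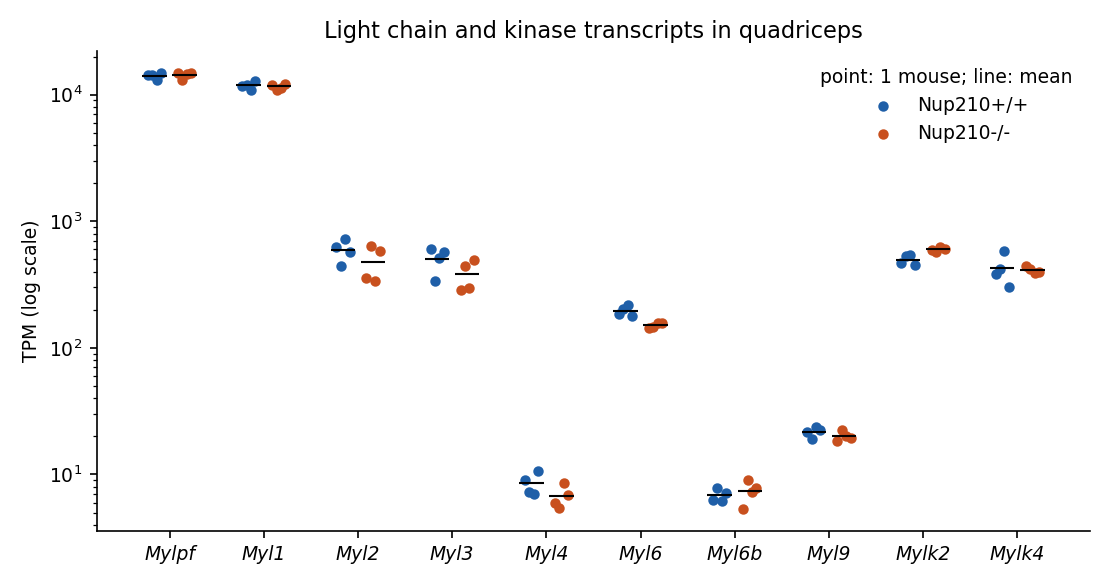
TPM of the 10 members on a log scale, with 1 point per mouse, *Nup210*+/+ in blue and *Nup210*-/- in orange, and a line at the mean of each genotype. The fast chains *Mylpf* and *Myl1* lie at the top in every library, at no less than 10807.54 TPM, and the genotypes separate only for *Mylk2* and *Myl6*.

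No member passed an adjusted p of 0.05 between genotypes (limma over 14229 genes, log2(scaled TPM + 1), Benjamini-Hochberg adjustment). Across all genes 16 did, or 0.112%, of which 0.0492% of genes were higher and 0.0633% lower in *Nup210*-/-. At an unadjusted p of 0.05 there were 2 members, *Mylk2* (higher, as 7% of all genes) and *Myl6* (lower, as 7.18%), against 14.2% of all genes in either direction. In the same 2 members the genotypes did not overlap. On TPM, 8.41% of all genes had no overlap, 1.54% being higher and 6.87% lower in *Nup210*-/-, and on scaled TPM 9.38%, with 4.78% higher and 4.6% lower. The median log2 fold change was 0.03 over the 10 members and -0.01 over all genes tested, with 5 members above and 5 below 0, where 48.7% of all genes were above 0.

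**Figure D2:**
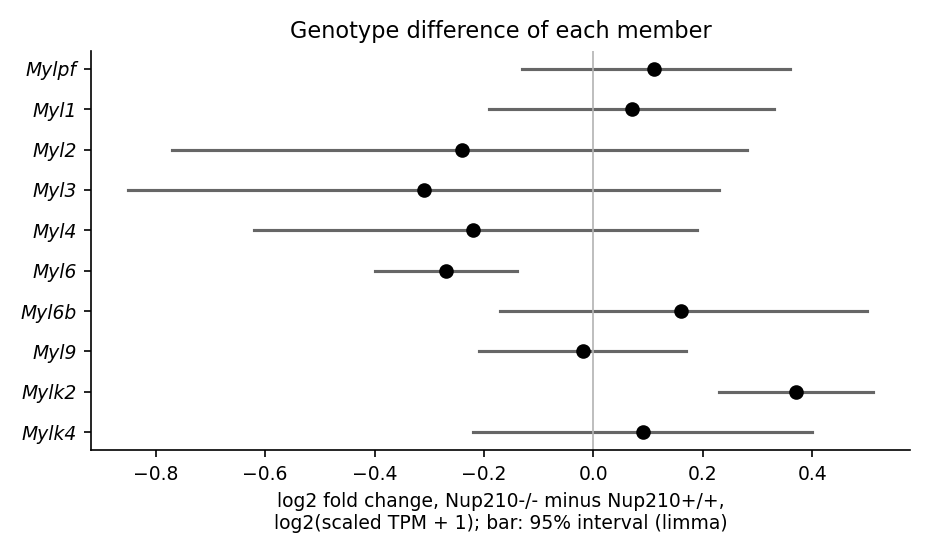
Log2 fold change of each member, *Nup210*-/- minus *Nup210*+/+, on the log2(scaled TPM + 1) scale, with its 95% interval from limma, unadjusted for the number of genes. The intervals of *Mylk2* (0.23 to 0.51) and *Myl6* (-0.40 to -0.14) leave out 0, and the widest are those of *Myl2* and *Myl3*.

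The kinase gene *Mylk2* (ENSMUSG00000027470, chromosome 2, 152911352 to 152923068, plus strand) was higher in every *Nup210*-/- than in every *Nup210*+/+ library. In *Nup210*-/- replicates 1 to 4 it was at 595.93, 574.96, 626.94 and 604.03 TPM, and in *Nup210*+/+ replicates 1 to 4 at 465.67, 534.66, 540.78 and 448.54 TPM. The knockout libraries were also the more uniform, with a coefficient of variation of 3.58% against 9.48%. The means were 600.5 ± 21.5 and 497.4 ± 47.1 TPM (SD, n = 4), a ratio of 1.21 (two-sided exact permutation test, p = 0.0286, the smallest that 4 against 4 allows). On the log2 scale the difference was 0.37 (standard error 0.0604), with an adjusted p of 0.0592 in limma. Weighting the libraries by their quality in limma gave a log2 fold change of 0.40 and an adjusted p of 0.0250, so the call depended on that choice. Over the 20 alternatives the adjusted p ran from 0.0250 to 0.234 and the log2 fold change from 0.28 to 0.41.

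The related kinase *Mylk4* (chromosome 13, 32700834 to 32783954, minus strand) did not separate by genotype as *Mylk2* did. It was at 444.17, 416.70, 391.52 and 393.90 TPM in *Nup210*-/- and at 381.24, 422.85, 586.74 and 303.04 TPM in *Nup210*+/+. Both the highest and the lowest library were wild type, replicates 3 and 4, and the knockout libraries sat between them. The means were 411.6 ± 24.5 and 423.5 ± 120 TPM (SD, n = 4; exact permutation test, p = 0.886), and the log2 fold change of 0.09 had a 95% interval of -0.22 to 0.40 (limma adjusted p = 0.789), which fell to -0.02 without *Nup210*+/+ replicate 4 and was at -0.0016 with TPM as deposited. Without *Nup210*+/+ replicate 3 the log2 fold change of *Mylk4* was 0.22, with an unadjusted limma p under 0.05 and an adjusted p of 0.383. Over the 8 libraries *Mylk2* and *Mylk4* had Pearson r = 0.301 (exact permutation p = 0.472, adjusted over 6 pairs 0.567). Their Spearman rho was 0.452 (exact permutation p = 0.267, adjusted 0.320). Summed, the transcripts of the 2 kinases were at 991.7 to 1040 TPM in *Nup210*-/- and 751.6 to 1128 TPM in *Nup210*+/+.

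Set against the fast regulatory chain in the same library, a ratio that no scaling between libraries can change, *Mylk2* was at 4.003, 4.371, 4.339 and 4.087% of *Mylpf* in *Nup210*-/-. In *Nup210*+/+ it was at 3.266, 3.756, 4.118 and 3.002%. These values were chosen for display after *Mylk2* had been seen and carry no test. The genotypes overlapped here, because *Nup210*+/+ replicate 3 had both a high *Mylk2* and a low *Mylpf* level. Other muscle genes also had estimates above 0: in the list of 10 fast-fiber genes, such as *Myh4* (0.30) and *Tpm1* (0.07) at its ends, all 10 did, with a median of 0.18, and so did all 10 defining muscle genes, from *Casq1* (0.03) to *Ryr1* (0.28), with a median of 0.17 in log2 fold change. Without *Nup210*+/+ replicate 2, 7 of the 10 defining genes and all 10 fast-fiber genes were above 0, with medians of 0.12 and 0.17. Some of these signs depend on the scaling. As deposited, the ratio of mean TPM, *Nup210*-/- over *Nup210*+/+, was 0.96 for *Casq1* and 0.982 for *Tpm1*. It was 1.13 for *Ryr1* and 1.15 for *Myh4*. In limma none of these 20 genes reached an adjusted p of 0.05. The estimate for *Mylk2*, 0.37, was above each of theirs, and their part in the *Mylk2* difference was not tested.

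**Figure D3:**
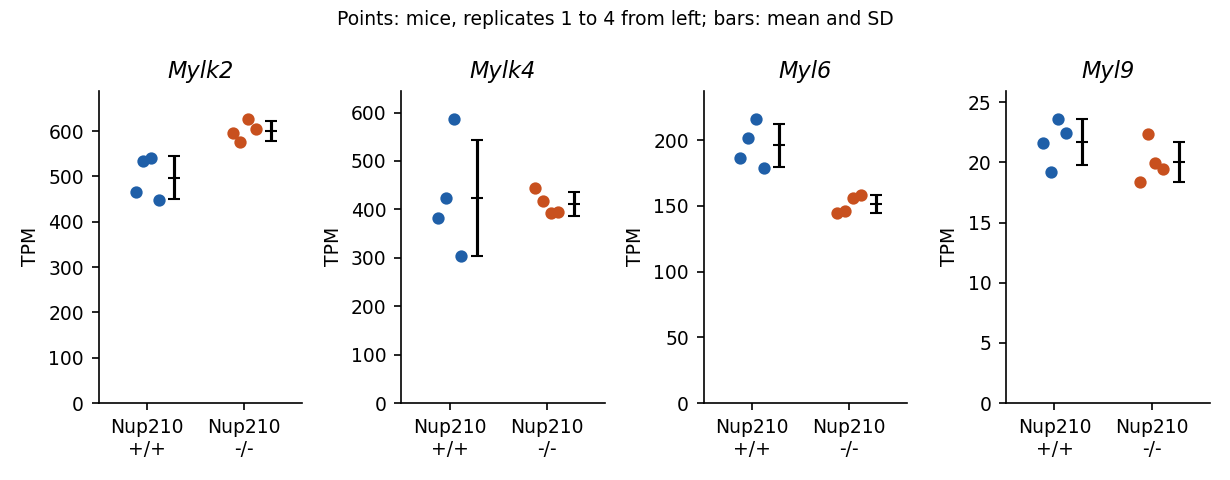
TPM of the kinases *Mylk2* and *Mylk4* and of the nonmuscle chains *Myl6* and *Myl9* on linear axes from 0, with 1 point per mouse in the order of replicates 1 to 4, and the mean and SD of each genotype (n = 4). In *Nup210*-/- mice *Mylk2* lies between 574.96 and 626.94 TPM and *Myl6* between 144.52 and 158.42 TPM, both without overlap with *Nup210*+/+, whereas the genotypes overlap for *Mylk4* and *Myl9*.

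The essential chain of smooth muscle and nonmuscle myosin, *Myl6* (ENSMUSG00000090841, chromosome 10, 128490860 to 128494145), was at 144.52, 145.91, 156.14 and 158.42 TPM in *Nup210*-/- replicates 1 to 4. In *Nup210*+/+ it was at 186.69, 201.81, 216.05 and 178.88 TPM. All knockout libraries were below all wild-type libraries. The means were 151.2 ± 7.05 and 195.9 ± 16.5 TPM (SD, n = 4), a ratio of 0.772 (exact permutation test, p = 0.0286). The log2 difference was -0.27 (standard error 0.0572), with an adjusted p of 0.115 in limma, and was -0.26 without *Nup210*+/+ replicate 2. The 5 pseudogenes that share sequence with it summed to 3.56 to 7.80 TPM in *Nup210*-/- and 3.23 to 6.56 TPM in *Nup210*+/+. With their TPM added, *Myl6* was at 148.32 to 163.94 and 182.11 to 220.77 TPM, still without overlap. The files list 1 transcript for the gene, so its alternatively spliced forms cannot be told apart.

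Markers of some other cell types had estimates on the same side as *Myl6*. All 8 tested leukocyte genes had estimates below 0, from *Tyrobp* (-0.76) to *Cd14* (-0.18), with a median of -0.59. Without *Nup210*+/+ replicate 2 all 8 were still below 0, with a median of -0.41 and *Tyrobp* at -0.39. The 10 listed genes summed to 123.1 to 140.5 TPM in *Nup210*-/- and 152.8 to 299.7 TPM in *Nup210*+/+. The 8 fibroblast genes, from *Col1a2* (-0.56) to *Lum* (-0.18), had a median of -0.40 (-0.25 without *Nup210*+/+ replicate 3) and summed to 644.5 to 775.2 TPM against 817.9 to 1274 TPM. Neither sum overlapped between genotypes, a result that leaving out a library cannot undo. Among all single genes, 6.87% were lower in *Nup210*-/- without overlap on TPM. Most of each sum came from 1 gene. In the leukocyte list it was at 92.52 to 105.04 TPM in *Nup210*-/- and 116.65 to 232.69 TPM in *Nup210*+/+. In the fibroblast list it was at 417.63 to 484.61 and 450.94 to 849.90 TPM, which overlap. Neither list had a gene past an adjusted p of 0.05 in limma, and no gene of these 2 lists was listed at 0 in every library. The endothelial list ran from *Cldn5* (-0.24) to *Egfl7* (0.31), with a median of -0.06, and its sums overlapped (120.1 to 129.2 and 116.0 to 133.2 TPM). The part of these cells in the *Myl6* difference was not tested.

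The other nonmuscle members showed no such separation. *Myl6b* was at 5.35, 9.01, 7.24 and 7.85 TPM in *Nup210*-/- and 6.26, 7.84, 6.13 and 7.08 TPM in *Nup210*+/+, with the knockout libraries at both ends of the range (log2 fold change 0.16, 95% interval -0.17 to 0.50, limma adjusted p = 0.640). That estimate was 0.28 without *Nup210*-/- replicate 1 and 0.08 without replicate 2. *Myl9*, the regulatory chain of smooth muscle, was at 18.39, 22.36, 19.95 and 19.50 TPM against 21.61, 19.18, 23.62 and 22.41 TPM. Its log2 fold change was -0.02 with an interval of -0.21 to 0.17 (limma adjusted p = 0.942), and it turned to 0.03 without *Nup210*+/+ replicate 4. The smooth muscle and mural list, of which 8 of 10 genes were tested, had a median of -0.02, with *Acta2* lowest (-0.41) and *Lmod1* highest (0.38) and no gene past an adjusted p of 0.05 in limma. *Myl6* and *Myl9* did not vary together over the 8 libraries (Pearson r = -0.0412, exact permutation p = 0.923; Spearman rho = -0.0714, exact permutation p = 0.882; adjusted over 6 pairs 0.923 and 0.882), and r was 0.0936 without the 2 libraries farthest from the median of *Myl6*.

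The slow chains varied more between mice than the fast ones. *Myl2* (chromosome 5, 122100951 to 122113472) was at 353.38, 634.40, 336.14 and 587.08 TPM in *Nup210*-/- replicates 1 to 4, and at 624.17, 442.45, 720.26 and 571.38 TPM in *Nup210*+/+. Knockout replicates 1 and 3 were the lowest libraries, and wild-type replicate 2 came next. *Myl3* (chromosome 9, 110741861 to 110769798) was low in the same 3 mice, at 287.06, 446.90, 297.21 and 493.00 TPM in *Nup210*-/- and 599.43, 338.23, 508.36 and 567.34 TPM in *Nup210*+/+. The coefficients of variation were 32.4 and 19.6% for *Myl2* and 27.4 and 23.1% for *Myl3* in *Nup210*-/- and *Nup210*+/+, against 5.23 and 6.85% for *Myl1*. The mean of *Myl3* was 381.0 ± 104 TPM in knockout and 503.3 ± 116 TPM in wild-type mice (SD, n = 4; p = 0.171 in an exact permutation test), a log2 fold change of -0.31 with a 95% interval of -0.85 to 0.23 (limma adjusted p = 0.576). For *Myl2* it was -0.24, with an interval of -0.77 to 0.28 (limma adjusted p = 0.654). Both intervals include 0, and differences of any size inside them are not excluded by 4 mice per genotype of this spread. Without *Nup210*+/+ replicate 2 the estimates were -0.49 for *Myl3* and -0.38 for *Myl2*, and without *Nup210*-/- replicate 3 they were -0.19 and -0.08. With wild-type replicate 2 left out, *Myl3* no longer overlapped, at no more than 493.00 TPM in knockout and no less than 508.36 TPM in wild-type mice. Its unadjusted limma p was then under 0.05, as for 1837 genes in all, and its adjusted p was 0.38.

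As a share of the striated regulatory chains (*Myl2* and *Mylpf* together), *Myl2* made up 2.319, 4.601, 2.273 and 3.820% in *Nup210*-/- and 4.194, 3.015, 5.199 and 3.683% in *Nup210*+/+. *Myl3* made up 2.337, 3.945, 2.544 and 3.877% of the striated essential chains (*Myl1*, *Myl3* and *Myl4*) in *Nup210*-/- and 4.878, 2.741, 4.490 and 4.253% in *Nup210*+/+. The fast chains thus made up most of both pools in every mouse. The differences between genotypes, -0.770 and -0.915 percentage points, were smaller than the SD within a genotype for *Myl2* and close to it for *Myl3* (0.854 and 0.936), and the genotypes overlapped in both. With 1 library left out they ran from -0.377 (without *Nup210*+/+ replicate 3) to -1.22 (without *Nup210*-/- replicate 2) for *Myl2*, and from -0.635 (without *Nup210*-/- replicate 1) to -1.36 (without *Nup210*+/+ replicate 2) for *Myl3*. In that last setting the *Myl3* shares did not overlap, at no more than 3.945% in *Nup210*-/- and no less than 4.253% in *Nup210*+/+.

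The slow chains were low in the same mice as the other slow-fiber genes. The 10 genes of the slow list summed to 728.1, 1324, 754.0 and 1256 TPM in *Nup210*-/- and to 1332, 829.7, 1197 and 1377 TPM in *Nup210*+/+, with the lowest sums in the same 3 mice that were low in *Myl2*. Among the remaining mice *Myl2* did not follow the sum. It was highest in *Nup210*+/+ replicate 3 (720.26 TPM), with the lowest sum among them, and lowest in replicate 4 (571.38 TPM), with the highest. In log2 fold change the slow list ran from *Ankrd2* (-0.28) to *Myh7b* (0.15), with a median of -0.13, 8 of 10 estimates below 0 and none past an adjusted p of 0.05 in limma. Its median was 0.01 without *Nup210*-/- replicate 1 and -0.31 without *Nup210*+/+ replicate 2. Over the 8 libraries and on log2(scaled TPM + 1), *Myl2* and *Myl3* correlated with Pearson r = 0.894 (exact permutation p = 0.0113, adjusted over 6 pairs 0.0339) but Spearman rho = 0.548 (exact permutation p = 0.171, adjusted 0.320). Without knockout replicates 1 and 3, r was 0.740 (exact permutation p = 0.165, n = 6) and did not pass the threshold. That test has fewer libraries and a narrower range of *Myl2*, so it cannot tell whether the correlation depends on those 2 libraries. With genotype means removed and all libraries kept, r was 0.880 (exact permutation p = 0.00866, adjusted 0.0260). Among 8387 other genes with a mean of at least 5 TPM, the 5 most like *Myl2* over the 8 libraries were *Mitf* (r = 0.963), *Adprhl1* (0.948), *Myoz2* (0.932), *Chd1* (0.922) and *Pdlim1* (0.919), a description of 8 points. *Tnni1* ranked 8, *Myl3* 14 and *Myh7* 33 in that order. Among the genes most like *Mylk2* in the same ranking were *Slc25a37* (0.987), 9330159F19Rik (0.967), *Dnajb12* (0.967) and *Sema6c* (0.962). With genotype means removed, r fell to 0.592 for *Dnajb12* and was 0.952 for *Slc25a37*.

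**Figure D4:**
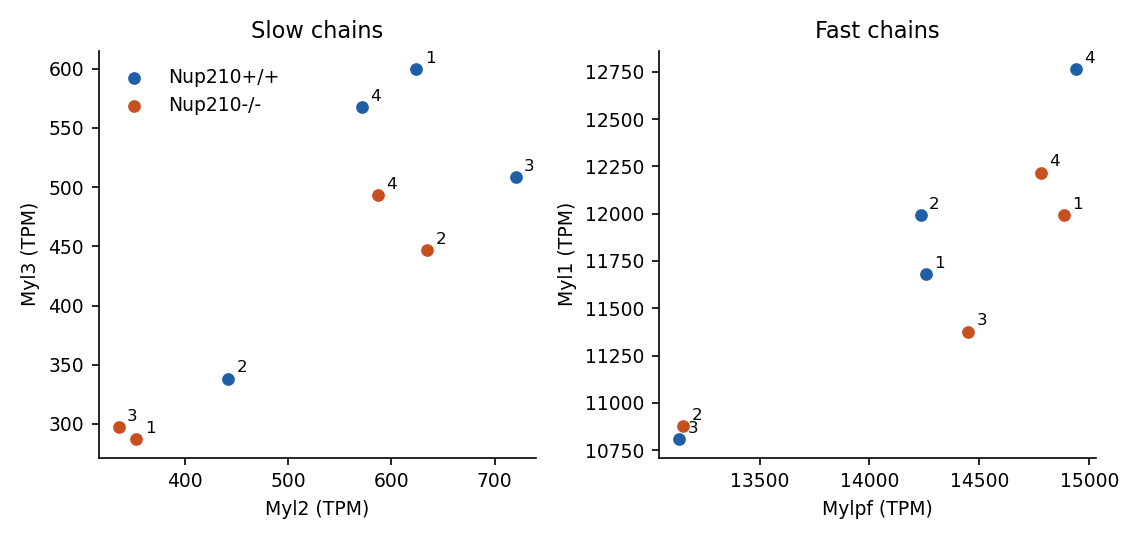
Levels of the slow chains *Myl2* and *Myl3* (left) and of the fast chains *Mylpf* and *Myl1* (right) in TPM, with 1 point per mouse labelled by its replicate number, *Nup210*+/+ in blue and *Nup210*-/- in orange. Knockout mice 1 and 3 and wild-type mouse 2 form the low end of the slow chains, and the fast chains fall along a line with the genotypes mixed; the axes do not start at 0.

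The fast chains varied little between mice and did not separate by genotype. *Mylpf* was at 14886.49, 13152.75, 14449.44 and 14779.68 TPM in *Nup210*-/- and at 14256.66, 14233.28, 13132.59 and 14940.53 TPM in *Nup210*+/+. Knockout replicate 2 and wild-type replicate 3 were the lowest, and the genotypes overlapped. Its log2 fold change was 0.11, with a 95% interval of -0.13 to 0.36 (limma adjusted p = 0.664), and was 0.04 without *Nup210*+/+ replicate 3, 0.18 without replicate 4 and 0.02 with TPM as deposited. *Myl1* was at 11990.39, 10875.51, 11376.55 and 12216.54 TPM against 11679.16, 11991.96, 10807.54 and 12762.88 TPM, with a log2 fold change of 0.07 (interval -0.19 to 0.33, limma adjusted p = 0.805). The sign of the *Myl1* estimate depended on the scaling, and it was -0.02 with TPM as deposited. A *Mylf-ps* value was not analysed here. *Myl1* and *Mylpf* varied together over the 8 libraries (Pearson r = 0.972, exact permutation p = 0.00126, adjusted 0.00759; Spearman rho = 0.833, exact permutation p = 0.0154, adjusted 0.0924; r = 0.945 without *Nup210*+/+ replicates 3 and 4). The kinase gene *Mylk2* and *Mylpf* did not pass the test (Pearson r = 0.440, exact permutation p = 0.274, adjusted 0.549; Spearman rho = 0.524, exact permutation p = 0.197, adjusted 0.320; r = 0.334 without *Nup210*+/+ replicate 1 and *Nup210*-/- replicate 4), and r was -0.0747 with TPM as deposited. For *Myl1* and *Mylpf*, Pearson r was 0.899 with TPM as deposited (exact permutation test, adjusted p = 0.017). The ratio of *Myl1* to *Mylpf* stayed between 0.7873 and 0.8542 in all libraries.

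*Myl4*, the embryonic and atrial essential chain, was low: 5.94, 5.45, 8.63 and 6.88 TPM in *Nup210*-/- and 9, 7.22, 7.06 and 10.72 TPM in *Nup210*+/+. It made up 0.04811 to 0.08035% of the striated essential chains. The genotypes overlapped (log2 fold change -0.22, 95% interval -0.62 to 0.19, limma adjusted p = 0.606). Leaving out *Nup210*+/+ replicate 4 gave -0.08 and leaving out replicate 3 gave -0.32. Of the 8 developmental and myogenic genes, 7 were tested, from *Myog* (-0.27) to *Ncam1* (0.33), with a median of 0.08 and none past an adjusted p of 0.05 in limma. Of the 8 cardiac genes only *Tnnt2* (0.12) and *Sln* (-0.04) were expressed well enough to be tested.

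The remaining light chains and the machinery of light chain phosphorylation were read from the same fit. Of *Myl7*, *Myl10*, *Myl12a* and *Myl12b*, the atrial chain *Myl7* was listed at 0 in every library and the other 3 had estimates below 0, none past an adjusted p of 0.05 in limma. *Myl12a*, a nonmuscle regulatory chain, was at 299.35 to 353.89 TPM in *Nup210*-/- and 302.52 to 397.41 TPM in *Nup210*+/+ (log2 fold change -0.02), which made it more abundant than *Myl6*. *Myl12b* was at 20.19 to 24.02 and 22.28 to 38.08 TPM (-0.29). *Myl10* was at 2.05 to 3.84 TPM in *Nup210*-/- and 25.91 TPM in *Nup210*+/+ replicate 2, against 2.34 to 4.90 TPM in the other wild-type mice, and its log2 fold change was -0.71, or -0.07 without that library.

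Of 12 genes for light chain phosphorylation, 11 were tested and none passed an adjusted p of 0.05 in limma, with 5 estimates above and 6 below 0 and a median of -0.03. The kinases *Rock1* and *Rock2*, which inhibit the myosin phosphatase, and *Mylk*, the kinase of smooth muscle, were each lower in all *Nup210*-/- than in all *Nup210*+/+ libraries. *Rock2* was at 36.60, 39.17, 39.62 and 35.08 TPM against 47.27, 47.11, 61.28 and 44.36 TPM, a log2 difference of -0.30 (standard error 0.0690) with an adjusted p of 0.127 in limma. *Rock1* was at 7.06 to 7.47 TPM against 7.85 to 11.13 TPM (-0.23, limma adjusted p = 0.237), and *Mylk* at 3.29 to 3.63 TPM against 3.7 to 6.22 TPM (-0.21, limma adjusted p = 0.423). These 3 of 11 genes stand beside 6.87% of all genes that were lower without overlap. The phosphatase subunits *Ppp1r12a* (-0.10), *Ppp1r12b* (0.14), *Ppp1r12c* (-0.29) and *Ppp1cb* (0.09) overlapped between genotypes, as did the calmodulin genes *Calm2* (-0.03) and *Calm3* (0.09) and the kinase *Dapk3* (0.05). *Mylk3*, the cardiac kinase, was at no more than 0.27 TPM in any library and was not tested.

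**Figure D5:**
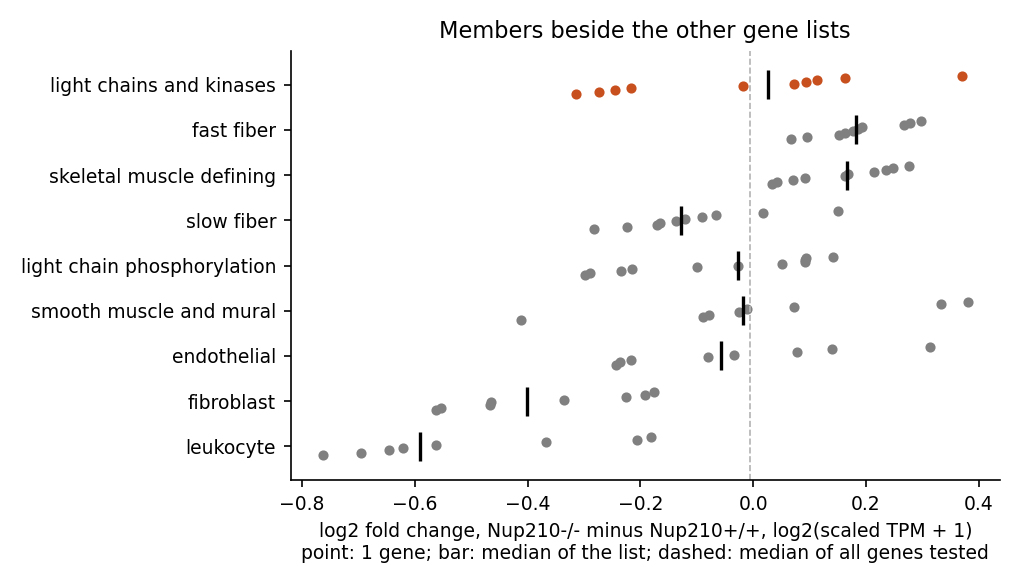
Log2 fold change of each tested gene, *Nup210*-/- minus *Nup210*+/+ on the log2(scaled TPM + 1) scale, for the 10 members (orange) and 8 other lists (grey), with a bar at the median of the list and a dashed line at the median of all genes tested (-0.01). The members spread from *Myl3* (-0.31) to *Mylk2* (0.37) around 0.03, while the fibroblast (-0.40) and leukocyte (-0.59) medians lie lowest.

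Because the study asked about the transcription factor Mef2C, the 250 bases before each RefSeq start were searched on both strands for a MEF2 site, for the E box (CANNTG, which myogenic factors bind) and for a CArG box. RefSeq promoters of GRCm38.p6 were matched by symbol for 9 of the 10 members; the exception was *Mylk2*. In these windows only *Mylk4* held a MEF2 site, against 2.89% of 32536 promoters. A CArG box was found before *Myl9*, *Myl3* and a downstream start of *Myl6*, against 1.48%. Some windows lie far from the GENCODE start. The RefSeq starts of *Myl2* are 8227 and 7762 bases before it, and that of *Myl3* is 21817 bases inside the gene. The bases next to those GENCODE starts were not searched, so a missing match there says nothing about them. An E box, found in 66.2% of promoters, was present before at least 1 start of 7 members and absent for *Myl9* and *Myl4*. The *Myl4* window overlaps exon sequence of another gene. The *Mylk4* window is printed as the only one with a MEF2 site, at chr13:32783965-32784214 on the minus strand. That of *Mylpf* is printed as the most abundant member, at chr7:127211358-127211607 on the plus strand, where the RefSeq start lies 2718 bases inside the GENCODE gene. Capitals mark E boxes and, in *Mylk4*, the MEF2 site 103 bases before the start.
Mylk4: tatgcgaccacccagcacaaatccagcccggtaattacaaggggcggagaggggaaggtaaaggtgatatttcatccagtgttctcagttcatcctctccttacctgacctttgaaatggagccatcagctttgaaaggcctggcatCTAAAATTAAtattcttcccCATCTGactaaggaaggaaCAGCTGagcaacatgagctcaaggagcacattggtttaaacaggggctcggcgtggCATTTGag
Mylpf: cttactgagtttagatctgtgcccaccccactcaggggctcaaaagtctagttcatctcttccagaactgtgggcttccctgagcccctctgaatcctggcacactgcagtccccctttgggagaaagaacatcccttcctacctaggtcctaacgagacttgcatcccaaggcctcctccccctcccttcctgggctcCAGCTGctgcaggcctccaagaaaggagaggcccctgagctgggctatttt
These matches describe letters in a window and were not tied to the expression values.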

How the data were processed

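Quadriceps RNA of 4 *Nup210*-/- and 4 *Nup210*+/+ mice was compared, the groups being taken from the sample titles. The authors trimmed reads with cutadapt 2.3, aligned them to mm10 with STAR 2.7.0d, estimated expression with RSEM 1.3.1 and deposited TPM per gene and library, without pooling. TPM are shares, so a gene that takes more of a library lowers the rest. The authors' counts were not used here, so their count test was not repeated.

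TPM were divided in each library by a median-of-ratios factor (0.9359 to 1.123, from 15225 genes), a pseudocount of 1 was added and log2 taken. Genes with a mean of at least 0.5 TPM (14229) went into limma 3.58.1 (R 4.3.3, trended variance, genotype as the only term, Benjamini-Hochberg over all genes). Tested on simulated data for this comparison, the fit recovered 28.8% of 200 genes changed by 0.5 on the log2 scale, 79.4% of those changed by 1 and 95.0% of those changed by 2. Single genes were compared on TPM with two-sided exact permutation tests over 70 labelings. Python 3.11.15 and matplotlib 3.10.9 were used for the rest. Positions are from GENCODE M21 (GRCm38), matched by Ensembl identifier; the exons of *Myl2*, *Myl3* and *Myl4* overlap those of a gene on the opposite strand.

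Members, lists and tests were chosen with earlier results of these data known. Named are the members, *Nup210*, genes past an adjusted p of 0.05 and the extremes of each list, all other light chain and phosphorylation genes, and the 5 genes most like *Myl2* and *Mylk2*, except some that are not reported here. Alternatives were other pseudocounts, filters, scalings and variance models, library weights, a replicate block, and each library left out in turn.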

Additional observations from a re-analysis of the deposited data

Results flagged for a closer look

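For the 4 libraries of each genotype, the distance of the most extreme value from its neighbour was divided by the spread from lowest to highest, and compared with Dixon's 95% critical value. Of 116 such groups, over 59 named genes and ratios, 6 were past it, where chance gives about 1 in 20 groups, or 5.8. No member was among them. In *Nup210*+/+ replicate 2, *Myl10* reached 25.91 TPM, beside 2.34 to 4.90 TPM (gap 0.891 of the range), and the same library held the granulocyte precursor genes *Ctsg*, at 105.1 TPM against 0.20 to 0.48 TPM (gap 0.997), and *Cebpe*, at 13.15 TPM against at most 0.18 TPM (gap 0.986). In *Nup210*+/+ replicate 3, *Ppp1cb* reached 387.4 TPM, beside 357.6 to 361.5 TPM (gap 0.869). In *Nup210*-/-, *Ppp1r12a* was at 9.01 TPM in replicate 3 against 7.63 to 7.73 TPM (gap 0.928), and *Cd14* at 2.21 TPM in replicate 1 against 2.61 to 2.67 TPM (gap 0.870).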

How the results depend on the processing

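*Mylk2* stayed above 0 and *Myl6* below 0 in all 20 alternatives, and both had an unadjusted p under 0.05 in each. Only library weights in limma brought a member past an adjusted p of 0.05: 1 member, *Mylk2*, with a log2 fold change of 0.40 (adjusted p = 0.0250). The count of members without overlap was 2 on TPM and with each of the other scalings. Leaving out a library cannot lower this count, so doing so does not test it. The count was 3 without *Nup210*+/+ replicate 2, where *Myl3* joined, and 3 without *Nup210*-/- replicate 3, where *Myl4* joined. The share of all genes without overlap was not computed for those settings. The number of genes called among all genes, 16, was 84 with library weights, 27 with a mean TPM of at least 1, 1 with any TPM above 0, 0 with a mean TPM of at least 0.1 (2244 at an unadjusted p of 0.05), 0 with eBayes without trend (1952) and 0 with the replicate number as a block (1850). Leaving out single libraries gave 0 to 10 genes in limma, 0 without *Nup210*-/- replicate 1, 3 or 4 and 1 without replicate 2, 2 without *Nup210*+/+ replicate 1, 2 or 3 and 10 without replicate 4, and 1575 to 2681 at an unadjusted p of 0.05; these fits have fewer libraries. With the block, the adjusted p of *Mylk2* was 0.234 and that of *Myl6* 0.255. Same-numbered libraries had correlations of deviations between -0.0329 and 0.0857, so no pairing by number was visible. The sample titles do not say whether mice were paired.

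With TPM as deposited, where the median of all genes moved to -0.08, *Myl1* turned to -0.02 and *Mylk4* to -0.0016. Leaving out 1 library turned *Myl1* (lowest -0.01, highest 0.15), *Mylk4* (-0.02 to 0.22) and *Myl9* (-0.07 to 0.03, with 0.01 without *Nup210*-/- replicate 1 and 0.000216 without replicate 3). The correlation of *Myl6* and *Myl9* was 0.434 with TPM as deposited and 0.142 with TPM rescaled without mitochondrial and top 20 genes, and that of *Mylk2* and *Mylpf* -0.0747 with TPM as deposited. In the medians of the other lists, recomputed without each library in turn after seeing the data, 4 changed sign: slow fiber (-0.31 to 0.01), light chain phosphorylation (-0.07 to 0.01), smooth muscle and mural (-0.06 to 0.02) and cardiac (-0.07 to 0.12). The cause of these changes was not tested. *Myl2* and *Myl3* kept their estimates below 0 in all 20 alternatives. Read depth is unknown, so its limits cannot be given.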
